A study of Mus musculus with 23 samples.

Results

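The genes described here are 10 mouse genes of the amino acid arm of the integrated stress response, namely Atf4, Ddit3, Trib3, Chac1, Asns, Psat1, Phgdh, Sesn2, Slc7a11 and Mthfd2. They were chosen by symbol, as the rows of the count table whose Ensembl identifier carries one of these names. Among its 55487 identifiers 11 did so, and the second identifier of Ddit3, a short model of 105 exonic bases, had no count in any library. All 10 genes passed the filter on low counts, as did 15748 genes in all. The cells were primary mouse embryonic fibroblasts (MEFs), which are connective tissue cells grown from minced embryos, here of the FVB/NJ strain, taken at mid-gestation after removal of the head and organs. They were homozygous for one of 4 forms of the glucocorticoid receptor (GR, gene Nr3c1), the steroid-activated transcription factor: an unchanged receptor (GRwt/wt), a threonine in place of an alanine where the DNA-binding domains of a GR dimer touch (GRD/D), an alanine in place of an isoleucine of the domain that binds ligand (GRL/L), or both of these exchanges at once (GRD+L/D+L). Cells of each genotype received vehicle or 10 nM dexamethasone (Dex), a synthetic GR ligand, for 5 h, and total RNA was sequenced. There were 8 groups and 23 libraries, 3 in each group but GRD/D vehicle, which had 2. All cells shared one rich medium with fetal calf serum, added nonessential amino acids, pyruvate and β-mercaptoethanol, so no group was deprived of amino acids by design. The study describes 3 cultures per genotype from different mice for its setup, but the labels do not tie a library to a mouse, so p-values measure the spread between these libraries.

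ATF4 is a bZIP transcription factor that is made mainly by translational control. When uncharged tRNA, unfolded protein, heme shortage or double-stranded RNA activates a kinase of the initiation factor eIF2, general translation falls while upstream reading frames in the Atf4 mRNA let the ATF4 coding sequence be translated. ATF4 pairs with C/EBP proteins at composite sites (C/EBP-ATF response elements) and raises genes for amino acid synthesis, uptake and tRNA charging, as well as feedback and death genes such as Trib3 and Ddit3. The values here are mRNA levels, so ATF4 protein and eIF2 phosphorylation were not measured.

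The composite site itself was looked for, because it is the sequence feature that ATF4 targets are known for. All 10 genes were matched to RefSeq promoters of the mouse GRCm38.p6 assembly, and the 250 bases upstream of each start were searched for TGATGNAA on both strands. These letters stood in 3.45% of all 32851 promoters, and in those of 3 of the 10 genes, Asns, Chac1 and Slc7a11. The 3 stretches are shown 5′ to 3′ on the strand of the gene, with the matches in capitals. The Asns stretch is chr6:7693210-7693309 on the minus strand and spans positions -100 to -1 from the start. The Chac1 stretch is chr2:119351002-119351101 on the plus strand and spans positions -240 to -141. The Slc7a11 stretch is chr3:50443614-50443713 on the minus strand and spans positions -100 to -1.
Asns: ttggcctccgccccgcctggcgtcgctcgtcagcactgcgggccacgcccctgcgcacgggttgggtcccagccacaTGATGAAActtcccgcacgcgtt
Chac1: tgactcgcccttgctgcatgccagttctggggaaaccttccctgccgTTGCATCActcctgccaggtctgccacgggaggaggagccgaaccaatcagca
Slc7a11: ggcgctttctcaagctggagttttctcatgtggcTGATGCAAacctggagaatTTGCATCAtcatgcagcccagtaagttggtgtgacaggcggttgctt
The Asns match lay on the strand of the gene and the Chac1 match on the other strand. Slc7a11 had a match on each strand. Trib3 had a match too, but at positions 15 to 22 downstream of its RefSeq start and so outside the searched stretch. Against the GENCODE coordinates given for the genes below, that match (chr2:152344039-152344046) lies upstream of Trib3. The Asns match (chr6:7693225-7693232) lies inside the GENCODE gene. Which genes hold an upstream match therefore depends on the start used. A palindromic glucocorticoid response element, spelled AGAACA and TGTTCT with any 3 letters between, was in none of the 10 upstream stretches and in 0.00913% of all promoters. These matches describe letters and not binding.

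Library depth was similar throughout, with total counts of 16452539 to 23117080 per library. The 9 fibroblast markers were present in every library, with summed levels of 32831 to 57358 CPM (counts scaled to library size), while 5 epithelial markers summed to at most 5.30 CPM. The receptor changes are single amino acids, and a receptor gene left unchanged should be expressed. In vehicle, Nr3c1 was at 4.08 to 88.0 CPM in GRwt/wt, 105 to 107 CPM in GRD/D and 133 to 138 CPM in GRL/L. It was at 128 to 252 CPM in GRD+L/D+L, which overlapped GRL/L. The cause of these differences was not tested. Mean Fkbp5, a direct GR target, went from 31.0 CPM without to 348 CPM with Dex in GRwt/wt, from 31.9 to 102 CPM in GRD/D, from 27.3 to 29.7 CPM in GRL/L and from 27.9 to 29.3 CPM in GRD+L/D+L. Of the GRwt/wt vehicle libraries, with which the mutants were compared in vehicle, 2 stood apart from the rest. Replicate 1 had a highest Spearman correlation with any other library of 0.916, against at least 0.973 elsewhere, its values moved with GC content, and its Nr3c1 level was 4.08 CPM against 73.0 and 88.0 CPM in replicates 2 and 3 and at least 44.5 CPM in any other library. That level goes against its label, so it is named below as the library labelled GRwt/wt vehicle replicate 1, it stayed in its labelled group, and counts without it are given. Replicate 3 carried 4636 CPM summed over 8 macrophage markers, against 37.8 and 16 CPM in replicates 1 and 2 and at most 1607 CPM in any other library. GRwt/wt Dex replicate 1 came next to vehicle replicate 1 on each trait named for the latter. Its highest correlation was 0.973 and its Nr3c1 level 44.5 CPM. The Spearman correlation of its deviations from the gene medians with GC content was 0.32, against 0.69 in vehicle replicate 1. In a bulk sample a lower level can mean less RNA per cell or fewer cells of a type, and these cannot be told apart.

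Per base of transcript, Atf4 was the highest of the 10 genes, with a mean of 97.8 RPKM (CPM divided by exon length in kilobases) over the 23 libraries. Phgdh, Asns, Ddit3, Psat1 and Sesn2 followed at 42.9, 40.6, 39.3, 37.6 and 32.1 RPKM, levels close enough that their ranges over libraries overlapped. Trib3, Mthfd2 and Chac1 were lower, at 21.4, 14.2 and 10.2 RPKM. The cystine transporter Slc7a11 was by far the lowest at 0.771 RPKM. Slc7a11 and Trib3 also varied most between libraries, spanning 13.3-fold and 10.4-fold from the lowest to the highest library, while Psat1, the steadiest, spanned 2.38-fold.

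**Figure D1:**
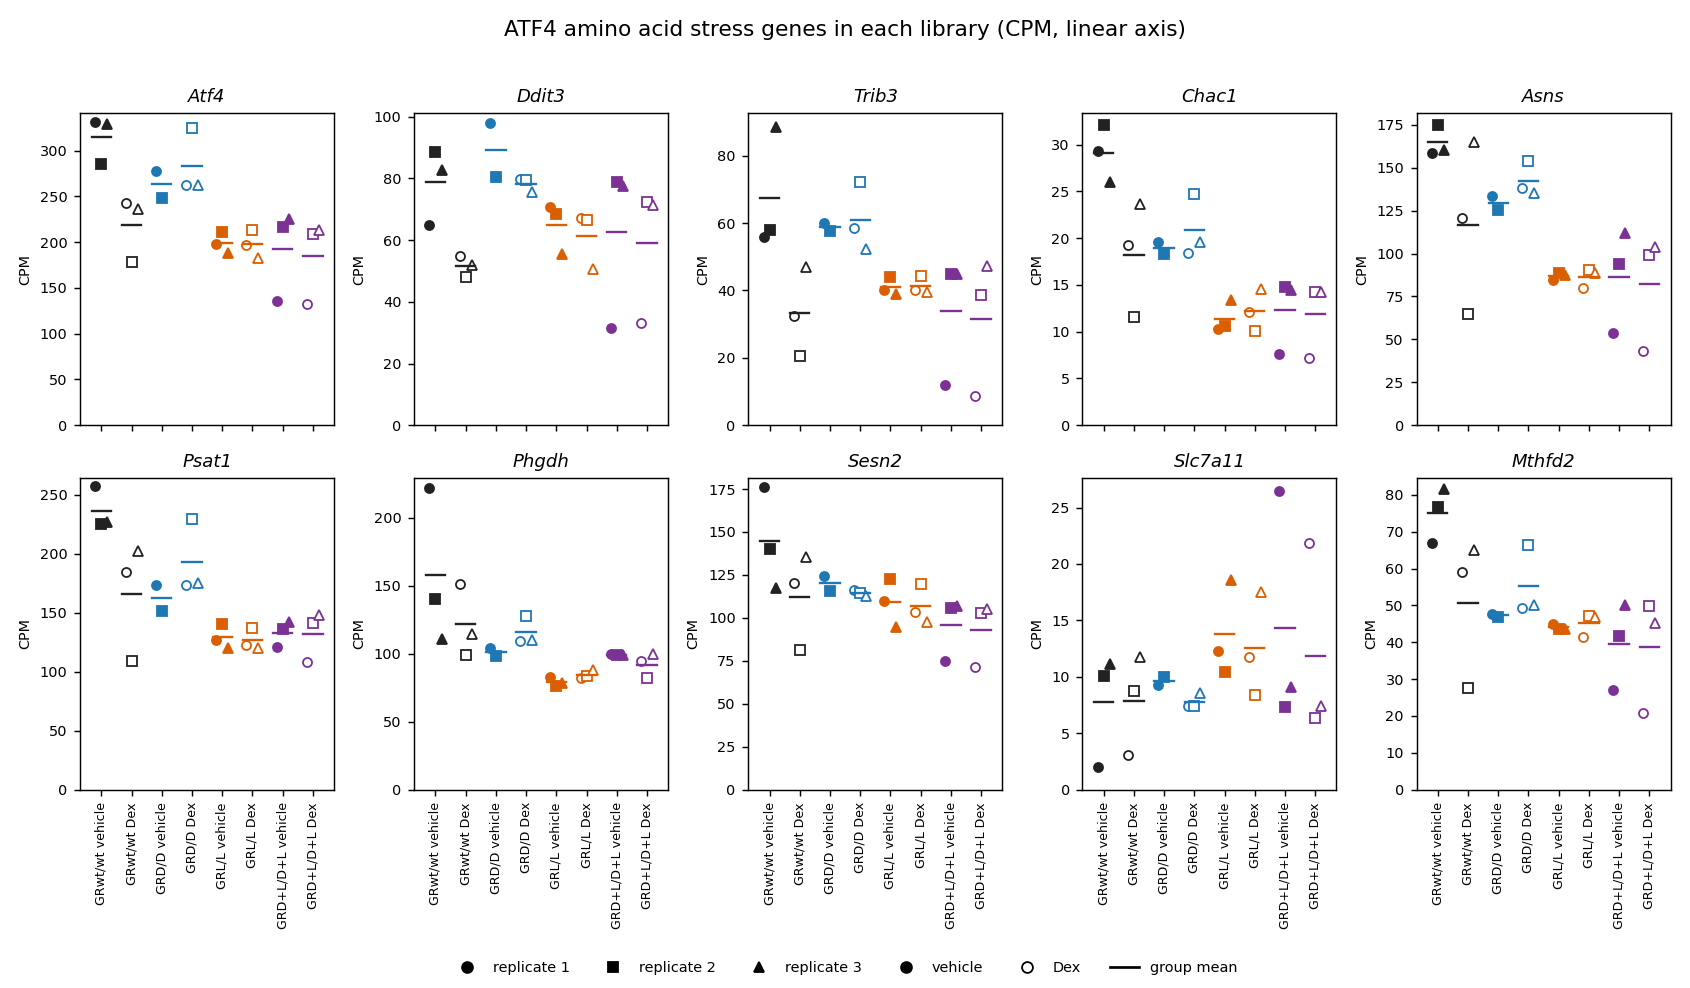
Level of each of the 10 genes in every library in CPM on linear axes that start at 0, with 1 point per library, its shape giving the replicate number, filled for vehicle and open for Dex, and a line at each group mean. A GRwt/wt vehicle point is the highest for 8 genes and a GRD+L/D+L point numbered 1 the lowest for 8 genes, while for Slc7a11 the latter points are the highest, at 26.4 and 21.9 CPM.

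Among the comparisons of the design, members passed the test between genotypes without added ligand. In vehicle, 9 of the 10 genes had a lower fitted level in GRL/L than in GRwt/wt, with a median log2 fold change of -0.74 beside -0.05 over all 15748 genes. Of these, Chac1, Phgdh, Psat1, Asns and Atf4 fell at an adjusted p of at most 0.05 (edgeR quasi-likelihood F test with Benjamini-Hochberg adjustment over all genes), 5 of 10 where 14.2% of all genes did. In GRD+L/D+L 9 of the 10 were again lower than in GRwt/wt, with a median of -0.77, and 7 fell, namely the same list plus Sesn2 and Mthfd2, where 13.3% of all genes did. That count of 7 went to 0 by edgeR with the other genotypes left out of the model, where 0.503% of all genes fell, and to 2 without GRD+L/D+L vehicle replicate 1, where 10.1% did. With the added demand of an absolute log2 fold change of at least 1, which the study also used, Chac1 alone was called in either genotype, beside 2.84% of all genes called lower for GRL/L and 4.71% for GRD+L/D+L. The libraries did not overlap, all below GRwt/wt, for 7 genes in GRL/L (18.4% of all genes) and for 8 in GRD+L/D+L (13.9%). Both comparisons use the same 3 GRwt/wt vehicle libraries, the one labelled replicate 1 with its low Nr3c1 included, so the likeness of their values is not independent. Without the libraries labelled GRwt/wt vehicle replicates 1 and 3, which leaves 1 library in that group, 3 genes fell in either of these genotypes, where 12.9% and 10.6% of all genes did, with medians of -0.68 and -0.68. With replicate 3 alone left out 4 genes fell for GRL/L and 5 for GRD+L/D+L, where 18.5% and 15.1% of all genes did. With replicate 1 left out 4 fell for each (12.5% and 12.3% of all genes), as with replicate 2 left out (15.8% and 15.2%). Without replicate 3 Chac1 was at -1.39 for GRL/L and -1.27 for GRD+L/D+L.

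Markers of other cell types differed in the same comparisons. The sum of 8 macrophage markers was 300.4 to 687 CPM in GRL/L vehicle and 6.81 to 78.5 CPM in GRD+L/D+L vehicle, against 16 to 4636 CPM in GRwt/wt vehicle, where replicate 3 was the high library. Of the 8 markers 6 were called lower in GRD+L/D+L and by edgeR 0 passed in GRL/L, whose libraries lay inside the GRwt/wt range, and Ptprc, C1qa, C1qb and Tyrobp were at 0 in 3, 2, 2 and 1 of the 23 libraries. Of 3 neural markers tested, Tubb3, a neuronal tubulin, was called lower in both genotypes, at -2.19 (edgeR adjusted p = 0.0018) for GRL/L and -1.72 (edgeR adjusted p = 0.0091) for GRD+L/D+L. The summed neural markers overlapped, at 57.8 to 173 CPM in GRwt/wt vehicle, 66.6 to 111 CPM in GRL/L and 30.5 to 186 CPM in GRD+L/D+L. Acta1, the skeletal muscle actin and the only marker of its list tested, was called lower in GRL/L at -2.59 (edgeR adjusted p = 0.024), and of 9 fibroblast markers Vim fell there at -0.93 (edgeR adjusted p = 0.0067). The part of these markers in the result was not tested beyond the libraries left out above.

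**Figure D2:**
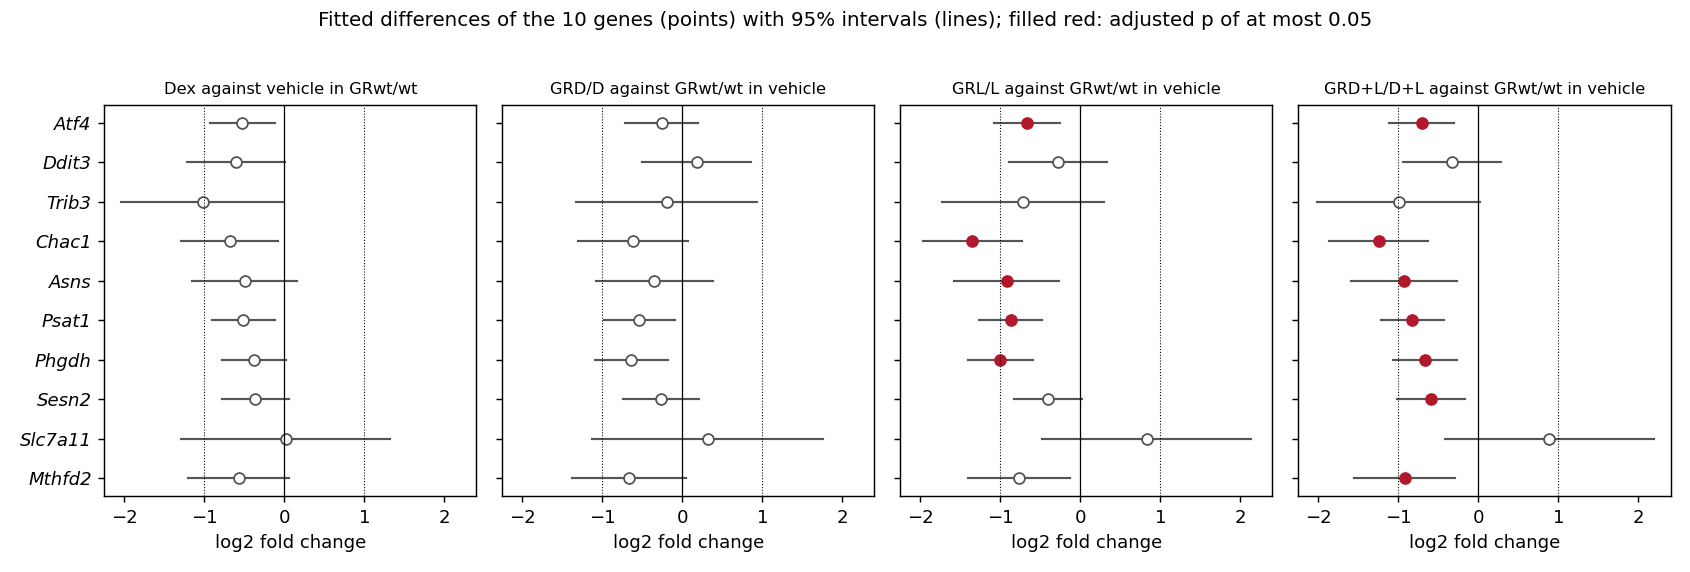
Fitted log2 fold change of the 10 genes (points) with 95% intervals (lines) in 4 comparisons, filled red at an adjusted p of at most 0.05, with dotted lines at a log2 fold change of 1 in each direction. There are 5 red points for GRL/L and 7 for GRD+L/D+L against GRwt/wt in vehicle, all left of 0, and none for Dex in GRwt/wt or for GRD/D.

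The regulators of the response come first. Atf4 itself (ENSMUSG00000042406, GRCm38 chr15:80255184-80257541, plus strand) had 331, 286 and 329 CPM in the 3 GRwt/wt vehicle libraries, 278 and 249 CPM in GRD/D, 198, 211 and 188 CPM in GRL/L, and 136, 217 and 225 CPM in GRD+L/D+L. Every library of the 3 mutant genotypes lay below every GRwt/wt library. The log2 fold change was -0.66 ± 0.20 (SE; edgeR adjusted p = 0.021) in GRL/L and -0.71 ± 0.20 (edgeR adjusted p = 0.018) in GRD+L/D+L. In GRD/D it was -0.26 ± 0.22, which missed the threshold (edgeR adjusted p = 0.58), with a 95% interval of -0.72 to 0.20.

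Ddit3 (ENSMUSG00000025408, chr10:127290774-127296288, plus strand) encodes CHOP, a bZIP protein that promotes cell death under lasting stress. Its exons overlap those of Mars and Gm4189 on the other strand, so its counts are uncertain if reads were counted without strand. It had 64.9, 88.7 and 82.6 CPM in vehicle-treated GRwt/wt, 97.8 and 80.5 CPM in GRD/D, 70.8, 68.6 and 55.5 CPM in GRL/L, and 31.6, 78.9 and 77.5 CPM in GRD+L/D+L. Every mutant group overlapped GRwt/wt, GRL/L and GRD+L/D+L both lay below GRD/D, and GRD+L/D+L replicate 1 was far below the rest. No genotype difference passed the test, at -0.28 ± 0.29 for GRL/L (edgeR adjusted p = 0.50) and -0.33 ± 0.29 for GRD+L/D+L (edgeR adjusted p = 0.43). The GRD+L/D+L value went to 0.02 without replicate 1 of that group.

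Trib3 (ENSMUSG00000032715, chr2:152337422-152344032, minus strand) encodes a pseudokinase that ATF4 and CHOP induce and that feeds back on both. It had 56.0, 57.8 and 88.6 CPM in vehicle-treated GRwt/wt, 60.1 and 57.7 CPM in GRD/D, 40.0, 43.9 and 39.0 CPM in GRL/L, and 11.9, 44.9 and 44.7 CPM in GRD+L/D+L. GRL/L and GRD+L/D+L lay wholly below GRwt/wt and GRD/D did not. Still, neither difference passed, at -0.72 ± 0.48 (edgeR adjusted p = 0.28) and -0.995 ± 0.483 (edgeR adjusted p = 0.15), since this gene had the widest error of the 10 after Slc7a11.

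Chac1 (ENSMUSG00000027313, chr2:119351229-119354381, plus strand) encodes a γ-glutamylcyclotransferase that breaks down glutathione and is a sensitive readout of ATF4 activity. It had 29.3, 32.1 and 26.0 CPM in vehicle-treated GRwt/wt, 19.6 and 18.3 CPM in GRD/D, 10.3, 10.6 and 13.3 CPM in GRL/L, and 7.62, 14.8 and 14.4 CPM in GRD+L/D+L. Highest were the 3 GRwt/wt libraries, the 2 GRD/D libraries lay between, and GRL/L and GRD+L/D+L overlapped each other below. It was 2.55-fold lower in GRL/L than in GRwt/wt, a log2 fold change of -1.35 ± 0.29 (edgeR adjusted p = 0.0037). In GRD+L/D+L it was 2.37-fold lower, -1.25 ± 0.29 (edgeR adjusted p = 0.0078). The GRD/D value of -0.62 ± 0.33 did not pass (edgeR adjusted p = 0.43). The GRL/L call held in all 33 alternative settings and the GRD+L/D+L call in 30. Without the GRD+L/D+L libraries numbered 1 Chac1 still fell, by 0.95 on the log2 scale (edgeR adjusted p = 0.015), and so missed the call on size.

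Asns (ENSMUSG00000029752, chr6:7675169-7693254, minus strand) encodes asparagine synthetase, the classical target through which the amino acid response element was defined. Its level was 159, 175 and 160 CPM in vehicle-treated GRwt/wt, 133 and 126 CPM in GRD/D, 84.7, 88.8 and 87.3 CPM in GRL/L, and 53.7, 93.6 and 112 CPM in GRD+L/D+L. All 3 mutant groups lay below GRwt/wt without overlap, with GRD/D above both others. The fall was -0.92 ± 0.31 for GRL/L (edgeR adjusted p = 0.041) and -0.93 ± 0.31 for GRD+L/D+L (edgeR adjusted p = 0.043). Both stood close to the threshold and passed it in 17 and 9 of the 33 alternatives.

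Phgdh, Psat1 and Mthfd2 belong to the serine and one-carbon route. Phgdh (ENSMUSG00000053398, chr3:98313170-98339990, minus strand) encodes phosphoglycerate dehydrogenase, which commits a glycolytic intermediate to serine synthesis. It had 222, 140 and 111 CPM in vehicle-treated GRwt/wt, 104 and 98.4 CPM in GRD/D, 82.5, 75.9 and 78.2 CPM in GRL/L, and 99.7, 99.3 and 98.9 CPM in GRD+L/D+L. The mutant libraries were tightly grouped within a genotype and all lay below GRwt/wt, whose own libraries spread the most. Phgdh fell by 1.00 on the log2 scale in GRL/L (SE 0.19, edgeR adjusted p = 0.0017), a value just short of the limit on size, so that the gene was not called. It fell by 0.67 in GRD+L/D+L (SE 0.19, edgeR adjusted p = 0.022). Replicate 1 of GRwt/wt vehicle, the library whose values move with GC content, held the highest Phgdh value. Without it Phgdh differed by -0.67 in GRL/L (edgeR adjusted p = 0.0020) and by -0.32 in GRD+L/D+L, which no longer passed (edgeR adjusted p = 0.0931). A processed copy, Phgdh-ps1, exists, and reads shared with it may be missing from these counts.

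Psat1 (ENSMUSG00000024640, chr19:15904678-15947337, minus strand) encodes phosphoserine aminotransferase, the next enzyme of that route. It had 257, 226 and 227 CPM in vehicle-treated GRwt/wt, 174 and 152 CPM in GRD/D, 127, 141 and 120 CPM in GRL/L, and 121, 137 and 142 CPM in GRD+L/D+L. Each mutant group lay wholly below GRwt/wt. Psat1 fell by 0.87 in GRL/L (SE 0.19, edgeR adjusted p = 0.0034) and by 0.83 in GRD+L/D+L (SE 0.19, edgeR adjusted p = 0.0063), and it passed in 33 and 32 of the 33 alternatives. In GRD/D the value was -0.54 ± 0.21 (edgeR adjusted p = 0.35).

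Mthfd2 (ENSMUSG00000005667, chr6:83305691-83325908, minus strand) encodes a mitochondrial enzyme that oxidises folate-bound one-carbon units. It had 66.9, 76.6 and 81.6 CPM in vehicle-treated GRwt/wt, 47.7 and 46.8 CPM in GRD/D, 44.9, 43.7 and 43.6 CPM in GRL/L, and 27.0, 41.6 and 50.2 CPM in GRD+L/D+L. No mutant library reached the GRwt/wt range. The fall of 0.92 in GRD+L/D+L passed (SE 0.30, edgeR adjusted p = 0.039). The value of -0.77 ± 0.30 in GRL/L did not (edgeR adjusted p = 0.073), although the GRL/L libraries were the closer to each other, and the difference between the mutants was not past the test.

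Sesn2 (ENSMUSG00000028893, chr4:132492032-132510501, minus strand) encodes sestrin 2, a leucine sensor that restrains mTORC1. It had 176, 140 and 117 CPM in vehicle-treated GRwt/wt, 124 and 116 CPM in GRD/D, 110, 123 and 94.9 CPM in GRL/L, and 74.8, 106 and 107 CPM in GRD+L/D+L. GRL/L and GRD/D overlapped GRwt/wt and GRD+L/D+L did not. It fell by 0.59 in GRD+L/D+L (SE 0.20, edgeR adjusted p = 0.045) and differed by -0.41 ± 0.20 in GRL/L (edgeR adjusted p = 0.15). The GRD+L/D+L result passed in 6 of the 33 alternatives only.

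Slc7a11 (ENSMUSG00000027737, chr3:49892526-50443614, minus strand) encodes xCT, the exchanger that brings in cystine for glutathione synthesis, and it did not move with the other genes. It had 1.99, 10.1 and 11.1 CPM in vehicle-treated GRwt/wt, 9.26 and 9.98 CPM in GRD/D, 12.3, 10.4 and 18.6 CPM in GRL/L, and 26.4, 7.32 and 9.13 CPM in GRD+L/D+L. A single library stood apart in GRwt/wt, GRL/L and GRD+L/D+L, and every mutant group overlapped GRwt/wt, while GRL/L lay above GRD/D. Its fitted differences were the only ones above 0 for GRL/L and GRD+L/D+L, at 0.83 ± 0.62 (edgeR adjusted p = 0.34) and 0.88 ± 0.62 (edgeR adjusted p = 0.31), and under limma-voom with library quality weights the second became -0.12. The low value in the library labelled GRwt/wt vehicle replicate 1 lay 2.35 log2 units under the mean of replicates 2 and 3. Slc7a11 has the lowest exonic GC content of the 10 genes, 40.7%, and that library favoured GC-rich genes. The part of GC content in its value was not tested.

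GRD/D took a middle place that the test did not resolve. In vehicle 8 of the 10 genes had fitted levels below GRwt/wt, with a median log2 fold change of -0.31 beside -0.06 over all genes, and 6 genes did not overlap, where 12.1% of all genes did not. No member passed the adjusted p by edgeR, though Phgdh did when GRwt/wt vehicle replicate 3 was left out (-0.79, edgeR adjusted p = 0.027). Phgdh and Psat1 had an unadjusted p under 0.05 where 8.92% of all genes were lower at that level, and DESeq2 called 0 members. By edgeR only 0.00635% of all genes were called in this comparison, which rests on 2 GRD/D libraries. The share called by DESeq2 is not given here, so its count of 0 members has no background beside it. Against GRD/D, the median was -0.38 for GRL/L and -0.39 for GRD+L/D+L, with 0 members past the adjusted p by edgeR, 1 and 0 at an unadjusted p under 0.05, and 1.08% and 1.02% of all genes called. With only these genotypes in the model 7 members passed as lower for GRL/L against GRD/D, where 17.1% of all genes did, and 5 did under limma-voom with library quality weights, where 19.3% of all genes did. Between GRD+L/D+L and GRL/L the median was -0.03, 0 members had an unadjusted p under 0.05, and 0.0953% of all genes were called.

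**Figure D3:**
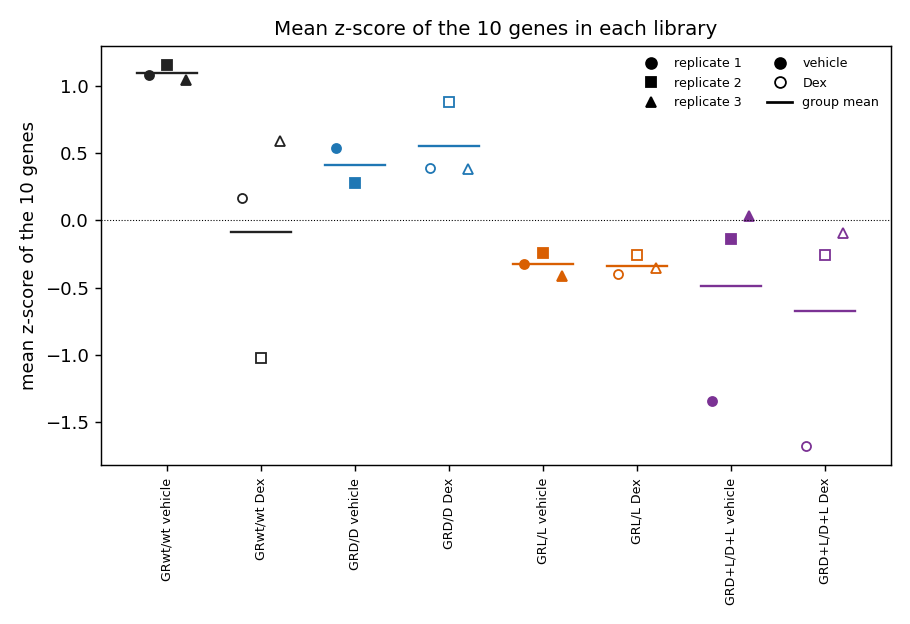
Mean z-score of the 10 genes in each library, where each gene's log2 CPM was scaled over the 23 libraries, with 1 point per library (shape for replicate number, filled for vehicle, open for Dex) and a line at each group mean. GRwt/wt vehicle is highest at 1.04 to 1.15, GRD/D vehicle has a mean of 0.410, GRL/L vehicle one of -0.328, and the lowest points, at -1.34 and -1.68, are GRD+L/D+L replicate 1 in vehicle and Dex.

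The second question of the design is what Dex did. In GRwt/wt cells 9 of the 10 genes had lower fitted levels after Dex, with a median log2 fold change of -0.52 beside -0.01 over all genes. None passed the adjusted p by edgeR, where 0.0191% of all genes passed as lower and 0.159% were called, all of the latter higher. DESeq2 called 0 members as well, where it called 1.77% of all genes. At an unadjusted p under 0.05 there were 4 members, where 10.2% of all genes were lower at that level. The Dex libraries lay wholly below the vehicle libraries for 6 genes, where 4.48% of all genes did. These were Atf4, Ddit3, Trib3, Chac1, Psat1 and Mthfd2. The comparison uses the 2 vehicle libraries that stood apart, the one labelled replicate 1 and replicate 3, and GRwt/wt Dex replicate 1. Macrophage markers summed to 14.9 to 94.3 CPM in GRwt/wt Dex, against 4636 CPM in vehicle replicate 3. Without vehicle replicate 1, 2 or 3 again 0 members passed the adjusted p by edgeR, where 0.268%, 2.51% and 1.1% of all genes passed as lower.

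Atf4 had 243, 178 and 237 CPM after Dex, against 286 to 331 CPM in vehicle, a log2 fold change of -0.52 ± 0.19 (edgeR adjusted p = 0.22). Trib3 had 32.4, 20.5 and 46.8 CPM after Dex, a value of -1.02 ± 0.48 that was the largest of the 10 (edgeR adjusted p = 0.32). Chac1 had 19.3, 11.5 and 23.7 CPM, a value of -0.68 ± 0.29 (edgeR adjusted p = 0.27). In each of these replicate 2 was the lowest of the Dex libraries. It was so for 9 of the 10 genes, all but Slc7a11, and without it the median of the 10 went to -0.28. Asns reached 121, 64.8 and 165 CPM after Dex and so overlapped vehicle. Ddit3 had 54.8, 48.0 and 52.1 CPM, the tightest Dex group, and a value of -0.61 ± 0.29 (edgeR adjusted p = 0.32). Slc7a11 had 3.03, 8.76 and 11.7 CPM and a value of 0.02 ± 0.62 that turned below 0 under upper-quartile scaling. With the replicate number as a block 3 genes passed the adjusted p as lower, Atf4, Ddit3 and Trib3, where 1.17% of all genes did, and Trib3 was called at -1.07 (edgeR adjusted p = 0.0099), but over all genes the same-numbered GRwt/wt libraries did not deviate together throughout (r = 0.55, 0.03 and -0.03). Vehicle replicate 2 had an r of 0.54 with Dex replicate 3. Over the 10 members alone the same-numbered correlations across genes were 0.93, 0.69 and 0.68, those of unlike numbers reached 0.50 and 0.48 between replicates 2 and 3, and the labels do not say that a number marks a shared culture.

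In the mutants the median Dex difference was close to 0, at 0.12 for GRD/D, -0.01 for GRL/L and -0.07 for GRD+L/D+L. By edgeR 0 members passed the adjusted p in these, 0 had an unadjusted p under 0.05, and 0% of all genes were called. Fkbp5 in GRD/D, at 31.1 to 32.6 CPM in vehicle and 93.9 to 118 CPM with Dex, was among the genes not called. A lack of calls there thus does not show a lack of Dex response. All 10 fitted values were below 0 in GRD+L/D+L, none beyond -0.27. Slc7a11, named here after its values were seen, was lower after Dex in all 8 same-numbered mutant pairs, by log2 differences of -0.07 to -0.42, and did not pass with the replicate number as a block, at -0.38 for GRD/D, -0.15 for GRL/L and -0.26 for GRD+L/D+L (edgeR adjusted p = 1 in each). The 95% intervals of single genes still reached from -1.75 to 1.18 in GRD/D, -1.42 to 1.16 in GRL/L and -1.56 to 1.03 in GRD+L/D+L, the widest of these being for Slc7a11 or Trib3. The tests of the difference itself, the Dex response in a mutant against that in GRwt/wt, gave values above 0 for 9 of the 10 genes in each mutant, with medians of 0.63, 0.50 and 0.49. By edgeR 0 members passed in any of the 3, with lowest adjusted p of 0.69, 0.80 and 0.97, and 2, 0 and 0 members had an unadjusted p under 0.05. Of all genes 0%, 0.0254% and 0.0254% were called.

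Under Dex the medians of the mutants lay closer to GRwt/wt than in vehicle, a shift that passed for no member when tested as an interaction by edgeR. The mutants did not draw closer to each other. In vehicle the mean z-score was 0.41 for GRD/D, -0.33 for GRL/L and -0.49 for GRD+L/D+L, and under Dex it was 0.55, -0.34 and -0.68, differences of means that were not tested. The median against GRwt/wt was 0.21 for GRD/D, -0.16 for GRL/L and -0.30 for GRD+L/D+L, beside 0.00, -0.02 and -0.03 over all genes. By edgeR 0 members passed the adjusted p in these comparisons, where 0.254%, 2.59% and 2.75% of all genes were called, and 0, 1 and 1 members had an unadjusted p under 0.05. Chac1, for example, had 18.4, 24.7 and 19.5 CPM in GRD/D under Dex, 12.1, 10.1 and 14.5 CPM in GRL/L, and 7.23, 14.2 and 14.2 CPM in GRD+L/D+L, against 11.5 to 23.7 CPM in GRwt/wt.

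Within GRD+L/D+L the 10 genes set the libraries numbered 1 apart from those numbered 2 and 3, in vehicle and Dex alike. Trib3 had 11.9 and 8.54 CPM in these libraries and 38.6 to 47.3 CPM in the other 4. Ddit3 had 31.6 and 33.2 CPM against 71.2 to 78.9 CPM, and Asns had 53.7 and 43.2 CPM against 93.6 to 112 CPM. In all, 8 of the 10 genes lay below all 4 other libraries, where 27.8% of all genes did, and Slc7a11 lay above them, at 26.4 and 21.9 CPM against 6.38 to 9.13 CPM, where 29.9% of all genes did. Phgdh, at 99.7 and 94.5 CPM, lay within. Summed cell cycle genes were highest of all 23 libraries in this pair, at 486 and 484 CPM, and Nr3c1 was at 128 and 119 CPM against 228 to 265 CPM. Summed neural markers were at 186 and 214 CPM in the pair against 30.5 to 49.4 CPM in the other 4 libraries, fibroblast markers at 32831 and 36438 CPM against 45529 to 57358 CPM, and endothelial markers at 3.37 and 3.86 CPM against 16.5 to 20.8 CPM. The part of these in the result was not tested. Without this pair 3 of the 10 genes fell in GRD+L/D+L vehicle against GRwt/wt, where 12.1% of all genes did, with a median of -0.58.
In GRL/L the libraries numbered 3 stood apart in part, with Slc7a11 at 18.6 and 17.5 CPM against 8.41 to 12.3 CPM in the other 4. In that pair 5 genes lay below the others, where 20.4% of all genes did, and Chac1 and Slc7a11 lay above, where 14.5% did. Chac1 thus went the other way than in GRD+L/D+L, and Asns and Mthfd2 lay within. In the GRL/L libraries numbered 2, Atf4, Trib3, Psat1 and Sesn2 lay above the others, where 19.3% of all genes did. Slc7a11 lay below them there, where 15.7% did.

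Across the 23 libraries most of the genes rose and fell together, as a description of these libraries that share genotype, treatment and any culture effect. Asns correlated with Atf4 at a Pearson r of 0.94 on log2 CPM, Chac1 at 0.91, Psat1 at 0.90, Trib3 and Mthfd2 at 0.89, Sesn2 at 0.84, Ddit3 at 0.79 and Phgdh at 0.60. Slc7a11 correlated at -0.65 with Atf4 and was below 0 with each of the other 9 genes. Leaving out the library labelled GRwt/wt vehicle replicate 1 changed the last value to -0.58.

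**Figure D4:**
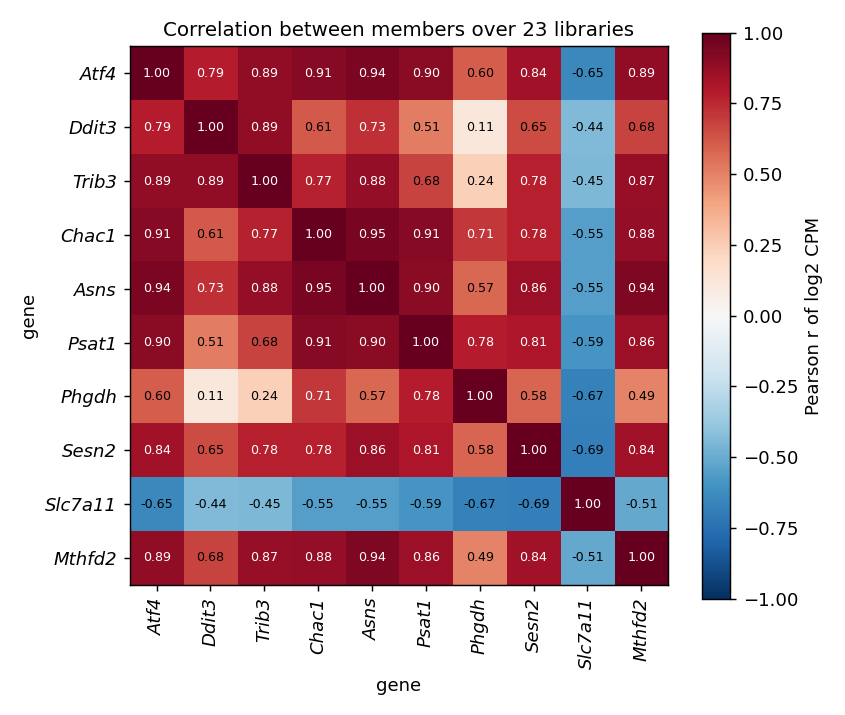
Pearson correlation of log2 CPM between each pair of the 10 genes over 23 libraries, red above 0 and blue below 0, with the value in each cell. The highest pair is Asns with Chac1 at 0.95, and the row of Slc7a11 runs from -0.69 to -0.44.

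Outside the 10 genes, the 8 whose log2 CPM correlated most with the mean z-score, of 13231 genes ranked over 23 libraries, were Aars (0.951), Cyb5r1 (0.944), Sars (0.933), Eif4ebp1 (0.929), Dusp3 (0.925), Leprotl1 (0.923), Bcat1 (0.922) and Derl1 (0.922). Aars and Sars charge tRNA with alanine and serine, Eif4ebp1 encodes a repressor of cap-dependent translation, and Bcat1 transaminates branched-chain amino acids. Without the library labelled GRwt/wt vehicle replicate 1, 6 of these stayed among the top 8, and Hspa9 and Nars took the other places. Of the 5 with a RefSeq promoter in the table, Aars held TGATGNAA in its 250 upstream bases.

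The wider pathway was read from lists of genes by role, as counts past the adjusted p in vehicle, first for GRL/L and then for GRD+L/D+L, against the same GRwt/wt libraries. Counts without single libraries were a choice made after seeing the data, and without the libraries labelled GRwt/wt vehicle replicates 1 and 3 the lone library left is assumed to vary like the other groups. In that setting 12.9% and 10.6% of all genes were lower. Beside the shares of lower genes given above, 8.83% and 7.14% of all genes were higher. The list of 12 cytosolic tRNA synthetases and Xpot, which exports tRNA from the nucleus, had 5 and 6 of 13 tested genes lower and 0 higher, with medians of -0.43 and -0.42. The 5 in GRL/L were Gars, Sars, Aars, Yars and Nars, and Cars joined them in GRD+L/D+L. Here none of them reached a log2 fold change of 1. Gars, the glycine enzyme, had a mean of 375 ± 78.7 CPM (SD, n = 3) in GRwt/wt, 198 ± 0.188 CPM in GRL/L and 194 ± 27.4 CPM in GRD+L/D+L. The list had 4 lower in each genotype without the libraries labelled GRwt/wt vehicle replicates 1 and 3, 1 of them called, with medians of -0.35 and -0.38.

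Of 13 other amino acid synthesis enzymes 6 and 4 were lower, as without the libraries labelled GRwt/wt vehicle replicates 1 and 3. The counts were 4 and 4 without replicate 1 alone, and 5 and 7 without replicate 3 alone, where 1 was also higher for GRL/L. Cth, which makes cysteine from cystathionine, was called in both, at -1.21 ± 0.39 for GRL/L and -1.89 ± 0.40 for GRD+L/D+L, the former not passing without GRwt/wt vehicle replicate 3 (edgeR adjusted p = 0.055). Asl, which makes arginine, was called in GRL/L at -1.01 ± 0.18. Of 11 serine, glycine and one-carbon enzymes beyond the 3 above, 5 were lower and 1 higher in GRL/L and 3 lower in GRD+L/D+L. Aldh1l1, which oxidises formyl-folate, was called in both, with means of 26.6 ± 16.5 CPM (SD, n = 3) in GRwt/wt, 5.86 ± 1.55 CPM in GRL/L and 2.17 ± 0.964 CPM in GRD+L/D+L. Psph, the last enzyme of serine synthesis, was called in GRL/L at -1.03 ± 0.19. Without those 2 libraries 4 of the 11 were lower for GRL/L and 2 for GRD+L/D+L, and Aldh1l1 was at -2.93 and -4.36. For GRL/L, Psph was then at -0.89 and Asl at -0.82, both short of a log2 fold change of 1. Without the GRD+L/D+L libraries numbered 1, 5 of the 11 serine, glycine and one-carbon enzymes were lower for that genotype. Their median was then -0.55 in place of -0.22.

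Of 10 amino acid transporters 3 were lower in GRL/L, and 4 were lower and 1 higher in GRD+L/D+L, where the cationic transporter Slc7a3 was called at -1.88 ± 0.53. None of the transporters was lower in either genotype without the libraries labelled GRwt/wt vehicle replicates 1 and 3 (edgeR adjusted p of Slc7a3 = 0.075 for GRD+L/D+L, and 0.090 without replicate 3 alone). Among 14 stress effectors 3 and 4 were lower and 1 was higher in each genotype. For GRD+L/D+L 2 were lower without the library labelled GRwt/wt vehicle replicate 1 and 1 without its own libraries numbered 1, and without GRwt/wt vehicle replicate 3 the higher ones numbered 3 for GRL/L and 2 for GRD+L/D+L. The higher one was Sesn3, of the same family as Sesn2 and known as a FoxO target, at 1.60 ± 0.36 for GRL/L and 1.61 ± 0.36 for GRD+L/D+L, and at 1.16 and 1.18 without those 2 libraries. Gdf15, a secreted stress hormone, was called lower in GRL/L at -1.80 ± 0.58, and Adm2 and Stc2 in GRD+L/D+L at -2.67 ± 0.81 and -2.11 ± 0.45. Adm2 did not pass without GRwt/wt vehicle replicate 3, at -1.96 (edgeR adjusted p = 0.084), or without the GRD+L/D+L libraries numbered 1 (edgeR adjusted p = 0.051). After Dex in GRwt/wt another family member, Sesn1, was called higher, with 102 ± 29.4 CPM (SD, n = 3) against 36.2 ± 5.33 CPM in vehicle (1.5 ± 0.20, edgeR adjusted p = 0.0016), while Sesn2 did not pass.

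**Figure D5:**
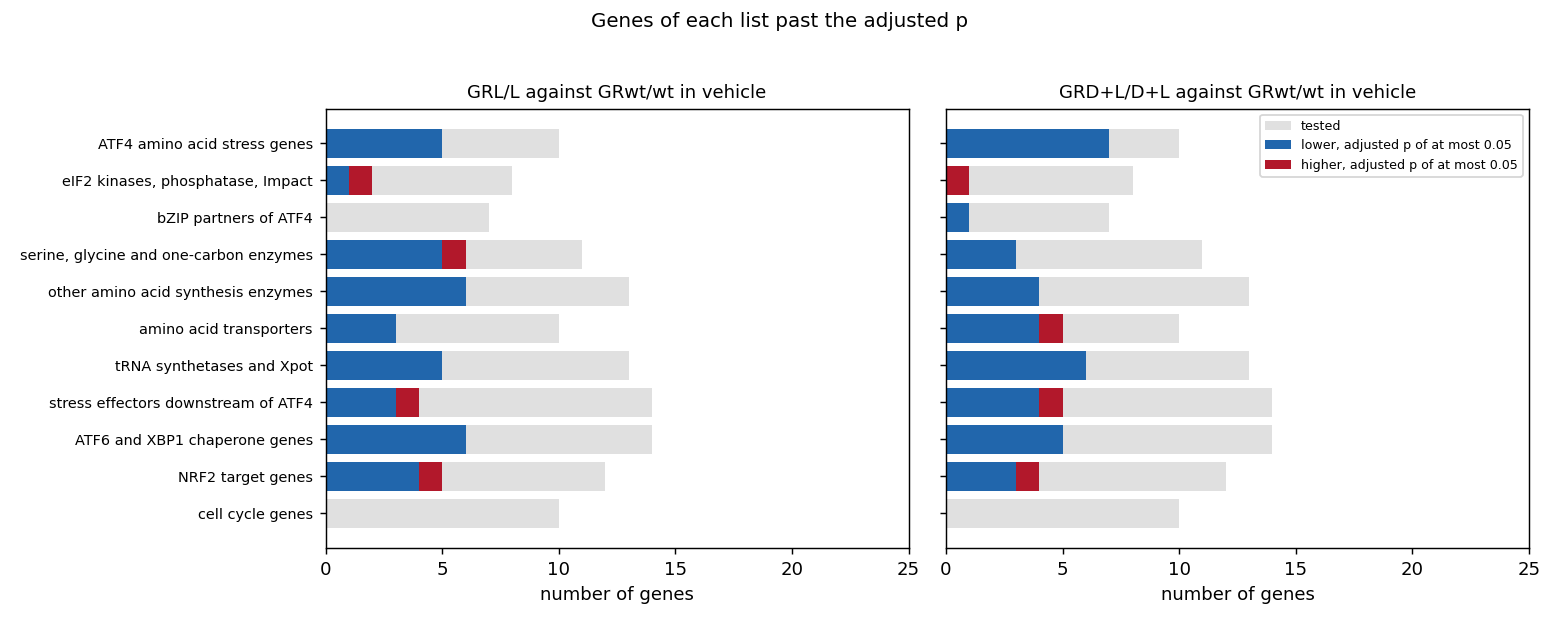
Number of genes of each list that were tested (grey bar), lower (blue) or higher (red) at an adjusted p of at most 0.05 for GRL/L and for GRD+L/D+L vehicle against GRwt/wt vehicle. The 10 ATF4 genes have 5 and 7 lower, tRNA synthetases with Xpot 5 and 6 of 13, and cell cycle genes 0 of 10 in both.

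Upstream of ATF4, the list of 8 genes, which holds the eIF2 kinases, an eIF2 subunit, the regulatory subunits of its phosphatase and the GCN2 inhibitor Impact, had 1 higher in each genotype. This was Eif2ak4 (GCN2), the kinase that senses uncharged tRNA, at 38.5 ± 3.18 CPM (SD, n = 3) in GRL/L, 35.8 ± 3.11 CPM in GRD+L/D+L and 21.9 ± 9.18 CPM in GRwt/wt. For GRD+L/D+L it did not pass without the libraries numbered 1 (edgeR adjusted p = 0.059). The list had 2 genes higher in each genotype without the library labelled GRwt/wt vehicle replicate 1. Without replicate 3 alone it had 1 higher for GRL/L and 2 for GRD+L/D+L. Ppp1r15a, which encodes GADD34, was lower in GRL/L, a result lost without the library labelled GRwt/wt vehicle replicate 1 (edgeR adjusted p = 0.058) or 3 (edgeR adjusted p = 0.13). Of 7 tested bZIP partners 0 changed in GRL/L and Atf3 was called in GRD+L/D+L at -2.63 ± 0.90, a result that held in 11 of 33 alternatives. Without GRwt/wt vehicle replicate 3 it was -0.50 (edgeR adjusted p = 0.63).

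The other arms of the unfolded protein and oxidative responses were not silent. Of 14 chaperone genes of the ATF6 and XBP1 arms 6 were lower for GRL/L and 5 for GRD+L/D+L, with Sdf2l1 called in both at -1.43 ± 0.29 and -1.21 ± 0.28. Without the libraries labelled GRwt/wt vehicle replicates 1 and 3 these counts were 3 and 0. Of 12 NRF2 target genes 4 were lower and 1 higher in GRL/L, and 3 lower and 1 higher in GRD+L/D+L. The lower ones numbered 3 and 2 without the library labelled GRwt/wt vehicle replicate 1, and 4 and 5 without replicate 3. The one called was Taldo1, an enzyme of the pentose phosphate pathway, lower in GRL/L at -1.06 (edgeR adjusted p = 0.00026) and passing in all 33 alternatives. The higher one was Gclc, the rate-limiting enzyme of glutathione synthesis, at 57.1 ± 13.5 CPM (SD, n = 3) in GRL/L, 55.9 ± 4.84 CPM in GRD+L/D+L and 34.4 ± 6.4 CPM in GRwt/wt. It did not pass in either genotype without the library labelled GRwt/wt vehicle replicate 1. It was called higher after Dex in GRwt/wt too (1.16 ± 0.22, edgeR adjusted p = 0.031), a call lost without the library labelled GRwt/wt vehicle replicate 1, without GRwt/wt Dex replicate 1 or 3, and without any of several single libraries of the GRD/D and GRL/L groups. The 10 cell cycle genes had 0 past the adjusted p by edgeR in either genotype, and 1 lower in each without those 2 libraries. Without GRwt/wt vehicle replicate 3 alone 2 were higher for GRL/L and 1 for GRD+L/D+L, with medians of -0.01 and 0.05. For GRD+L/D+L 2 were lower once its own libraries numbered 1 were left out, with the median at -0.68 in place of -0.27. The median for GRL/L was -0.25 with all libraries kept. With replicates 1 and 3 of GRwt/wt vehicle both absent, the medians were above 0, at 0.36 for GRL/L and 0.33 for GRD+L/D+L. In GRD/D vehicle 0 genes of any of these lists passed, and after Dex in GRwt/wt the list of tRNA synthetases with Xpot had a median of -0.27 with 11 of 13 fitted values below 0 and none past the test.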

How the data were processed

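RNA-seq was analysed for 23 libraries of primary MEFs. The deposited values are raw counts of reads for each Ensembl gene, which the authors made from TruSeq libraries by mapping to mm10 and keeping uniquely mapped reads; the submitters' processing notes name HISAT2 2.1.0 and featureCounts 2.0.0. The strand setting and annotation release are not given in the sources used here. Of 55487 identifiers 55227 matched GENCODE M21, which gave symbols and coordinates. Columns were matched to libraries by name.

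Counts of all libraries were fitted in 1 model with a mean per group in edgeR 4.0.16 (filterByExpr, TMM scaling, prior count 0.125, quasi-likelihood F test, Benjamini-Hochberg adjustment over 15748 genes) under R 4.3.3. SE values were derived from the log2 fold change and F. A gene passes at an adjusted p of at most 0.05 and is called if its absolute log2 fold change is also at least 1. CPM used TMM library sizes, RPKM divided CPM by exon length, and log2 CPM for z-scores and correlations had a prior count of 2. The scripts were tested on simulated data. Alternatives were DESeq2 1.42.0, limma 3.58.1 voom with quality weights, other scalings and filters, fewer genotypes, a replicate block and each library left out.

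Members and lists were chosen with earlier results of these data known. By rule, all members were named, with at most the 3 largest called genes of a list and the 8 non-member genes of at least 1 CPM most like the members' mean z-score. Other list genes were named after their values were seen, where few passed. Same-numbered vehicle and Dex libraries deviated together over all genes in GRL/L (r = 0.32, 0.64 and 0.63) and GRD+L/D+L (0.89, 0.79 and 0.65), and not throughout in GRwt/wt (0.55, 0.03 and -0.03) or GRD/D (0.28 and -0.20). The main model fits all 23 libraries as independent. Where a number marks a shared culture, its p-values between genotypes may be too small. No pair of libraries of a group was alike within counting noise (lowest mean chi-square per gene 9.11).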

Additional observations from a re-analysis of the deposited data

Results flagged for a closer look

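For 4 pairs of gene and genotype every Dex library lay on one side of the vehicle mean in a mutant and on the other side in GRwt/wt, so the Dex responses pointed opposite ways. In none of the 4 did the test of the difference itself (genotype by treatment, edgeR) pass. Psat1 in GRD/D had a difference of 0.76 ± 0.28 (log2, adjusted p = 0.69), with 174 to 230 CPM after Dex against a vehicle mean of 163 CPM, where GRwt/wt had 109 to 203 CPM against 237 CPM. Mthfd2 in GRD/D had a difference of 0.80 (adjusted p = 0.77), with 49.2 to 66.4 CPM against 47.3 CPM, where GRwt/wt had 27.6 to 64.9 CPM against 75.0 CPM. Phgdh had a difference of 0.57 in GRD/D (adjusted p = 0.73), with 109 to 128 CPM against 101 CPM, and of 0.47 in GRL/L (adjusted p = 0.82), with 82.1 to 87.8 CPM against 78.9 CPM, where GRwt/wt had 99.0 to 151 CPM against 158 CPM. The GRD/D vehicle means rest on 2 libraries.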

How the results depend on the processing

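Of 544 recomputed counts of called members 528 stayed within 1.5 times the reported count, and 13 of the 16 comparisons had no other value. The reported count was above 0 only for GRL/L and GRD+L/D+L against GRwt/wt in vehicle, so most of this agreement is a 0 that stayed 0. Both of those comparisons had other values. With the replicate block the count for Dex in GRwt/wt went from 0 to 1 (Trib3), and it changed no other call. The block pairs libraries by number only, which the values over all genes in GRwt/wt and GRD/D do not bear out. For GRL/L against GRwt/wt in vehicle the reported 1 became 4 under upper-quartile scaling, 2 with only those genotypes in the model and 5 on adjusted p alone, and it ran from 1 to 2 with each library left out. For GRD+L/D+L it became 3, 0 and 7 under those settings and 0 without both libraries numbered 1, a choice made after seeing the data, and it ran from 0 (without GRD+L/D+L vehicle replicate 1) to 3 (without replicate 3). Upper-quartile scaling moved the median of all genes to -0.17 and -0.19 in these comparisons. On adjusted p alone 23% and 20.4% of all genes passed, and 12% and 1.11% did with only those genotypes in the model. The share of all genes called is not given beside the other counts, so these do not show whether the members moved beyond the rest.

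Members past the adjusted p numbered 3 to 7 in GRL/L and 0 to 7 in GRD+L/D+L over 33 alternatives, with 0 for GRD+L/D+L where only the genotypes compared were fitted and 0.503% of all genes were lower. Chac1, Psat1 and Phgdh passed in all 33 for GRL/L. Without the GRD+L/D+L libraries numbered 1, 7 passed for GRL/L and 3 for GRD+L/D+L, beside 15% and 12.1% of all genes lower. Leaving out vehicle replicate 1 of GRD+L/D+L alone left 2 there. Where 1 library of a group remained, it was assumed to vary like the other groups.

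Values that changed sign were all far from the threshold. Slc7a11 for Dex in GRwt/wt was -0.021 under upper-quartile scaling, -0.25 under limma-voom, -0.38 without the libraries labelled GRwt/wt vehicle replicates 1 and 3, and -0.43 to 0.42 with each library left out. Slc7a11 for GRD/D in vehicle was -0.064 under limma-voom, -0.092 without those 2 libraries and -0.13 to 0.70 with each library left out, and for GRD+L/D+L it was -0.12 under limma-voom. Ddit3 was -0.016 for GRD/D without those 2 libraries, and for GRD+L/D+L it was 0.033 without the libraries numbered 1 and -0.53 to 0.024 with each library left out. Trib3 for GRD/D was 0.0021 without the same 2 libraries and -0.32 to 0.095 with each library left out. Causes were not tested. All-gene calls for Dex in GRwt/wt ranged from 0 to 374 around the reported 25, with 279 by DESeq2 and 199 with the block, while members called there stayed at 0 but for Trib3 with the block. In GRD/D even the rise of mean Fkbp5 from 31.9 to 102 CPM was not called. With 2 or 3 libraries a group and single-gene SE of 0.19 to 0.69, small Dex responses were not detectable without the block. With it the SE was 0.11 to 0.23 for GRL/L and GRD+L/D+L, and by edgeR 0 members passed there, 0 having an unadjusted p under 0.05.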
